A study of Mus musculus with 4 samples.

Results

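CC chemokines are small secreted proteins that bind receptors on leukocytes and set the direction in which those cells move. The 10 genes described here, Ccl2, Ccl3, Ccl4, Ccl5, Ccl6, Ccl7, Ccl8, Ccl9, Ccl11 and Ccl19, were chosen by name from the 32453 gene names in the 4 count tables of the series, and all 10 were listed in every table. The question taken to them was which of the sorted bone marrow cells carried their RNA, the mesenchymal stromal cells or the blood cells, and how this differed between the libraries. In marrow, ligands of the receptor Ccr2 are known for drawing monocytes out of the tissue into blood, the ligands of Ccr1 act on monocytes and neutrophils, and Ccl19 acts through Ccr7 on lymphocytes and dendritic cells. Stromal cells and myeloid cells are both known sources, and several of these genes are switched on quickly by inflammatory signals.

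The libraries came from male mice that carried Col2-Cre and Rosa26 lsl-tdTomato (Col2:Td), strain label B6SJL/F1, at 1, 1.5, 3 and 16 months of age. Endosteal bone marrow, the marrow released by protease digestion of metaphyseal bone fragments of the long bones, was sorted for the top 1% of Td+ cells or for the Td+ peak and run on the 10x Genomics platform. The marrow of 2, 3, 3 and 3 mice was pooled into 1 library per age, so no difference below has a replicate check, and library and age cannot be told apart. All groups shared the Col2 Cre driver, which labels chondrocytes and mesenchymal lineage cells, and the sort also held many blood cells.

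After the filter on genes and mitochondrial UMIs, 8308, 5453, 4180 and 6143 cells remained, with medians of 10280, 9621, 6264 and 9670 unique molecular identifiers (UMIs, counted RNA molecules) per cell. The 3 younger tables listed 27999 genes and that of 16 months listed 31054, and between 1 and 61 cell barcodes were shared by any pair of libraries. Clusters were made without any chemokine or chemokine receptor gene and were named from fixed markers. In the names of the study, early and late mesenchymal progenitors are EMP and LMP, osteoblasts OB, osteocytes Ocy, adipocyte lineage cells AD and chondrocytes CH. AD-like cells carried all 9 of their markers in each library, with a summed level of 23296, 36733, 31970 and 34778 counts per 1000000 UMIs (CPM) at 1, 1.5, 3 and 16 months.

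Stromal cells were taken as the EMP-, LMP-, OB-, Ocy- and AD-like cells and the unnamed clusters that grouped with them, and numbered 1749, 3126, 1640 and 5089. At 16 months 3 of these unnamed clusters were led by genes of blood cells, namely immunoglobulin genes in 359 and 357 cells and hemoglobin genes in 24 cells. Leaving out every unnamed stromal cluster kept all 42 of the members' calls. Hematopoietic cells were all blood-cell clusters and numbered 5708, 304, 1298 and 681. Some clusters that grouped with blood cells had skeletal leading genes (Col10a1, Prg4, Hapln1), and the values without all unnamed blood-cell clusters are given with the limits. Levels are CPM of the UMIs summed over a group of cells, with exact Poisson intervals at the 95% level, and shares of cells have exact binomial intervals. Both cover counting error only.

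Of the 10 members, 9 lie on mouse chromosome 11 in 2 stretches. The first holds Ccl2, Ccl7, Ccl11 and Ccl8 (mm10, chr11:82035571-82116799, 81.23 kb), and the second holds Ccl5, Ccl9, Ccl6, Ccl3 and Ccl4 (chr11:83525778-83664683, 138.9 kb), 1409 kb further along. Ccl2 and Ccl7 are 8.258 kb apart and Ccl3 and Ccl4 13.23 kb apart. Ccl19 lies on chromosome 4 (chr4:42754525-42756577, minus strand), and up to 52.7% of the 60-base windows at the end of its transcript were also found in a single one of the genes Ccl19-ps1, Ccl19-ps3, Gm12407 and Gm2564, so its counts are uncertain. Ccl2, Ccl6 and Ccl19 each overlap an annotated gene on the opposite strand (Gm17268, E230016K23Rik and 4930578G10Rik).

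The 250 bases before the start of 3 myeloid members are shown because the levels of these genes in blood cells carry much of what follows, and because Ccl6 and Ccl9 are neighbours. They were taken from RefSeq promoters of the build GRCm38.p6, all on the minus strand, and 5 of the 10 members had an entry (Ccl3, Ccl6, Ccl8, Ccl9 and Ccl19). Ccl3 is chr11:83649379-83649628, Ccl6 is chr11:83593088-83593337 and Ccl9 is chr11:83578637-83578886. Capitals mark the letters that matched 1 of the 5 searched motifs on either strand.
Ccl3: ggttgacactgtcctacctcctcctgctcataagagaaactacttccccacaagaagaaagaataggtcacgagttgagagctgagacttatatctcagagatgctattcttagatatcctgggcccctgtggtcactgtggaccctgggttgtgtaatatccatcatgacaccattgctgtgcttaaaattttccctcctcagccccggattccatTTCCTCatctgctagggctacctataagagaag
Ccl6: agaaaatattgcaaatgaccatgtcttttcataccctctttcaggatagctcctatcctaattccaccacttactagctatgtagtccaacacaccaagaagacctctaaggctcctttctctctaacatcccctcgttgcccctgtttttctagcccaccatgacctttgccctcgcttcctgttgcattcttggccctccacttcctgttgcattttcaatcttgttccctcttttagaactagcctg
Ccl9: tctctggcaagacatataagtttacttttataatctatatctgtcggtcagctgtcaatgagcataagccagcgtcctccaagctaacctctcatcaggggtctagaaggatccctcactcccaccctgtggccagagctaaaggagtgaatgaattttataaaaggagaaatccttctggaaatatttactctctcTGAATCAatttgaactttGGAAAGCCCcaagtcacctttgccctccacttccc
The motifs were GAGGAA (PU.1, found in 23.2% of 32851 promoters of this length), TTGCNNAA (C/EBP, 9.56%), GGGNNTTCC (NF-kB, 4.98%), TGANTCA (AP-1, 6.75%) and TTCNNNGAA (STAT, 7.02%). Ccl3 held the PU.1 letters 33 to 28 bases before the start. Ccl9 held the AP-1 letters 53 to 47 bases before the start and the NF-kB letters 35 to 27 bases before it, and Ccl6 held none. In the other entries Ccl8 held the PU.1 letters 240 to 235 bases before the start and Ccl19 the NF-kB letters 249 to 241 bases before it. A match describes the letters of the window and is not a measured site.

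Between the compartments the members fell into 3 patterns. Ccl3, Ccl4, Ccl6, Ccl8 and Ccl9 were at least 2-fold higher in hematopoietic cells in all 4 libraries. Ccl19 was at least 2-fold higher in stromal cells in all 4, and so was Ccl11 at 1, 1.5 and 16 months. Ccl2, Ccl7 and Ccl5 changed call with the library. The 1.5 month calls rested on 304 cells grouped as blood cells. Of these, 96 were in an unnamed cluster led by Col10a1, Hapln1 and Pth1r. Another 69 were in one led by Prg4, Cxcl12 and Igfbp5. Without the cells in the top 8% of doublet scores, the log2 ratio of hematopoietic over stromal level in that library changed. It was 0.84 for Ccl4 and 0.06 for Ccl8, under the 2-fold rule, and -1.05 for Ccl3 and -0.33 for Ccl9, on the other side. A gene was compared where it had 20 UMIs or more over both compartments. At 1 month 6 of 10 members were called higher in hematopoietic cells, where 18.2% of all genes tested were, and 2 were higher in stromal cells, where 32.9% were. At 1.5 months 5 were higher in each compartment (background 13% hematopoietic and 19.8% stromal). At 3 months 6 of 9 were higher in hematopoietic cells (background 17.2%) and 3 in stromal cells (background 31.6%), with Ccl11 too sparse to compare. At 16 months 6 were higher in hematopoietic cells (background 14.8%) and 4 in stromal cells (background 41.0%). The median log2 ratio of hematopoietic over stromal level was 1.91, 0.24, 3.92 and 3.23 over the members compared, and -0.32, -0.14, -0.28 and -0.64 over all genes with UMIs on both sides.

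**Figure D1:**
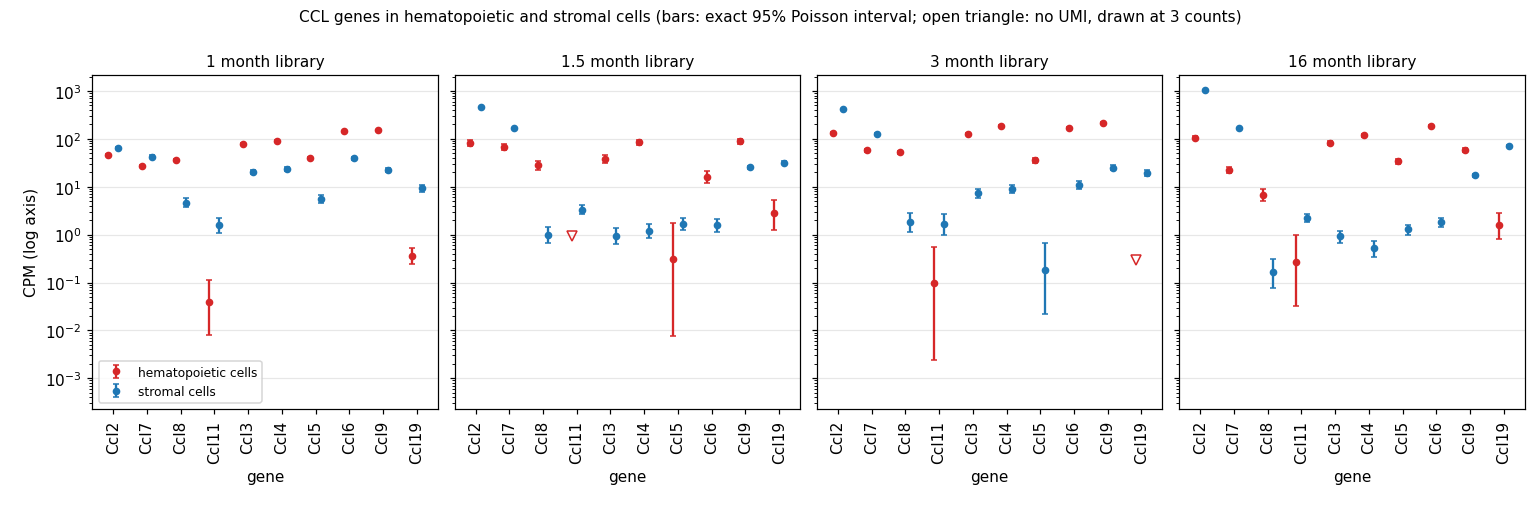
CPM of each member (log axis) in hematopoietic and stromal cells of the 4 libraries with exact 95% Poisson intervals, where an open triangle marks a group with no UMI, drawn at 3 counts. Ccl2 and Ccl7 lie above the hematopoietic level in stromal cells at 1.5, 3 and 16 months, while Ccl3, Ccl4, Ccl6, Ccl8 and Ccl9 lie above the stromal level in hematopoietic cells in every library.

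Ccl2, the main ligand of Ccr2 and an attractant of monocytes, was higher in stromal than in hematopoietic cells from 1.5 months on. Its stromal level was 65.0 CPM at 1 month, 464 CPM at 1.5 months, 417 CPM at 3 months and 1034 CPM at 16 months. Its hematopoietic level was 47.0, 81.9, 133 and 106 CPM in the same order. Stromal cells were thus higher by 1.38-fold at 1 month (95% counting interval 1.30 to 1.48), below the 2-fold rule, and by 5.67-fold, 3.13-fold and 9.72-fold in the later libraries.

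Within the stroma, Ccl2 was concentrated in AD-like cells from 1.5 months on. Their level was 220 CPM at 1 month (interval 198 to 243), 1503 CPM at 1.5 months (1475 to 1532), 2147 CPM at 3 months (2080 to 2217) and 1557 CPM at 16 months (1544 to 1571). AD-like cells held 7.29%, 75.2%, 56.7% and 80.0% of all Ccl2 UMIs of their library, shares that also follow how many such cells the sort yielded (214, 1168, 418 and 3320). EMP-like cells had 431, 567, 332 and 211 CPM, and at 1 month they stood above the AD-like cells. A single EMP-like cell held 142 of their 232 Ccl2 UMIs at 3 months and another 118 of 263 at 16 months. LMP-like cells had 29.4, 134, 75.2 and 217 CPM, and OB-like cells, the most mature bone-forming class, stayed between 4.83 and 26.3 CPM. At 16 months high levels were also measured in mural-like cells (1526 CPM in 21 cells) and endothelial-like cells (684 CPM in 121 cells). The AD-like and mural-like levels at 16 months overlapped in their intervals, whereas at 1.5 and 3 months the AD-like cells stood alone at the top of the classes of at least 20 cells.

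Among blood cells Ccl2 came from macrophage- and monocyte-like cells. At 1 month these classes held 29.9% and 28.9% of the Ccl2 UMIs, at 376 CPM in 474 macrophage-like and 143 CPM in 936 monocyte-like cells. At 3 months the monocyte-like cells had 527 CPM and the macrophage-like cells 226 CPM. At 16 months the macrophage-like cells (34 cells) had 742 CPM and the monocyte-like cells (59 cells) 415 CPM. Neutrophil-like cells had 5.94, 22.8, 29.4 and 39.3 CPM. Carry-over of free RNA was gauged from the markers of the class highest in a gene, and the level it would give was 2.13%, 23.9% and 9.20% of that measured in macrophage-like cells at 1, 3 and 16 months, but 292%, 107%, 33.7% and 117% of that in neutrophil-like cells at 1, 1.5, 3 and 16 months. The neutrophil-like level was therefore at or below that gauge in 3 of 4 libraries.

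After every cell was thinned to 3000 UMIs, which left out no cell at 1 and 1.5 months and kept 3868 cells at 3 months and 5625 at 16 months, a Ccl2 UMI was found in 21.5%, 53.2%, 63.9% and 48.7% of AD-like cells. Before thinning the shares were 34.1%, 60.8%, 67.7% and 61.4%. In CH-like cells, which had low Ccl2 throughout, the thinned shares were 2.08%, 6.87%, 3.09% and 7.08%. AD-like cells with and without a Ccl2 UMI were thus found in every library, though a cell without a counted UMI may still carry the RNA. Over all cells of each library, 50% of the Ccl2 UMIs lay in 112, 117, 86 and 287 cells.

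**Figure D2:**
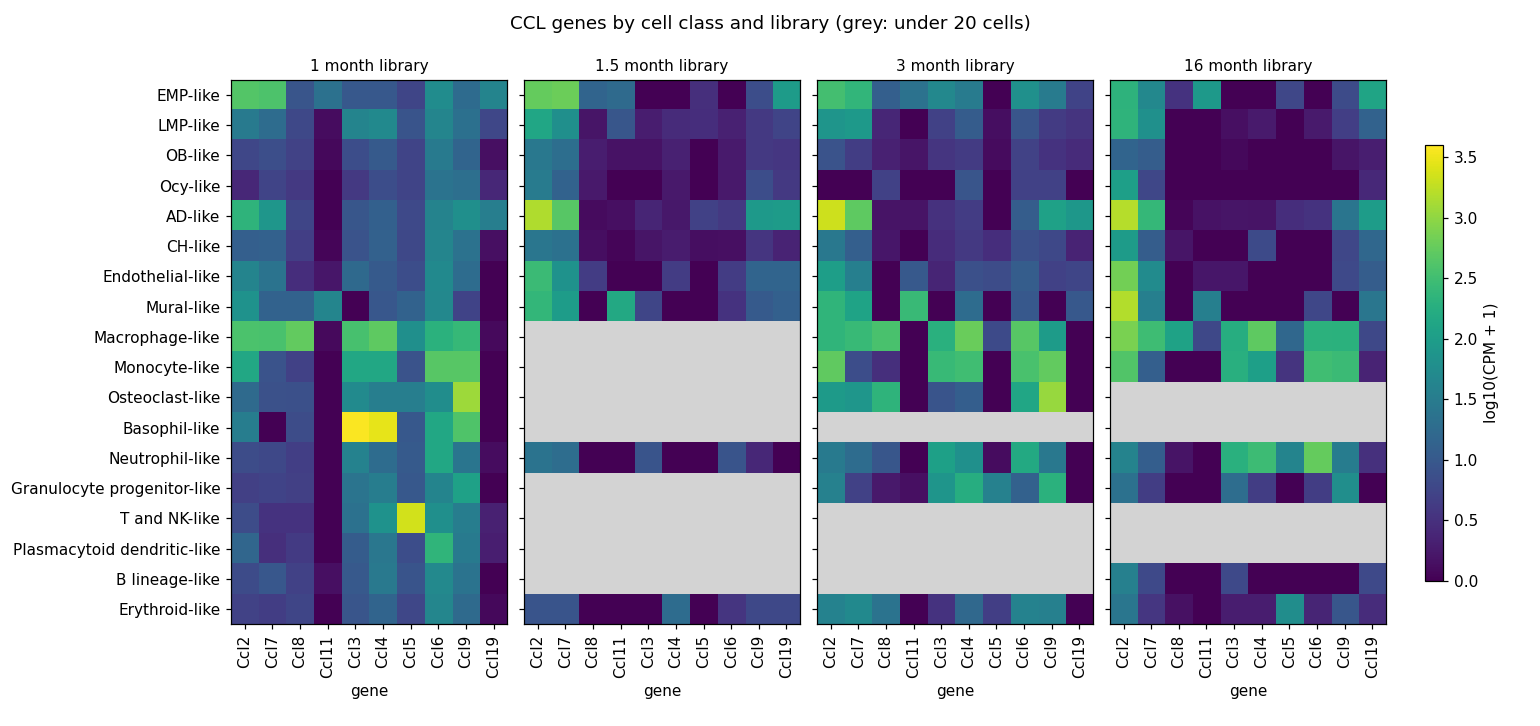
Heat map of log10(CPM + 1) of the 10 members in 18 cell classes and 4 libraries, with classes under 20 cells in grey. Ccl2 and Ccl7 are high in the AD-, EMP- and macrophage-like classes, Ccl19 in the AD- and EMP-like classes, Ccl8 in macrophage-like cells, Ccl9 in osteoclast- and monocyte-like cells and Ccl5 in T- and NK-like cells.

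Ccl7, another Ccr2 ligand and the chromosomal neighbour of Ccl2, shared the AD-, EMP- and macrophage-like classes with it but was low in monocyte-like cells. Endothelial-like cells at 16 months had 52.9 CPM of Ccl7, against 684 CPM of Ccl2. Stromal cells had 42.1, 165, 126 and 168 CPM and hematopoietic cells 26.6, 68.0, 57.5 and 22.3 CPM. The stromal level was higher by 1.58-fold at 1 month, 2.43-fold at 1.5 months, 2.20-fold at 3 months (interval 2.00 to 2.43) and 7.53-fold at 16 months. The 3 month ratio sat at the edge of the 2-fold rule and fell under it in 4 of the alternatives tried. The 1.5 month ratio fell under it in 2, at a log2 ratio of -0.96 with up to 10% mitochondrial UMIs and -0.94 without the unnamed blood-cell clusters.

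EMP-like cells had 389, 616, 233 and 46.6 CPM of Ccl7, and AD-like cells 77.7, 462, 514 and 245 CPM. Macrophage-like cells had 372 CPM at 1 month, where they held 49.2% of the Ccl7 UMIs, 267 CPM at 3 months and 307 CPM at 16 months. Monocyte-like cells, high in Ccl2, had 7.35, 6.12 and 11.2 CPM of Ccl7 at 1, 3 and 16 months. At 1 month the level gauged from free RNA was 78.5% of the monocyte-like value and 1.95% of the macrophage-like value. At the top of the order, EMP- and macrophage-like cells overlapped in their intervals at 1 month, while AD-like cells were highest at 3 months and the 34 macrophage-like cells at 16 months. Monocyte-like cells therefore carried Ccl2 with little Ccl7, whereas macrophage-like cells carried both.

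The pair was also compared cell by cell after thinning. Among AD-like cells with a Ccl2 UMI, 47.5% also had a Ccl7 UMI at 1.5 months (interval 43.5 to 51.5), against 20.3% of those without (17.0 to 23.9). The values were 45.7% against 16.9% at 3 months, 33.5% against 11.9% at 16 months and 19.6% against 11.3% at 1 month, where the intervals overlapped. In macrophage-like cells at 1 month they were 47.0% (39.2 to 54.9) against 16.6% (12.6 to 21.2). In monocyte-like cells of that library they were 3.11% against 1.55%. Joint detection of Ccl2 and Ccl7 was thus measured in both the stroma and the macrophages, and the part played by differences in RNA content between cells was not tested.

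Ccl8, a ligand of Ccr8 in mouse, was a macrophage gene in these libraries. Hematopoietic cells had 36.4, 28.1, 52.3 and 6.68 CPM and stromal cells 4.62, 0.991, 1.85 and 0.165 CPM, so the hematopoietic level was 7.88-fold, 28.4-fold, 28.2-fold and 40.4-fold higher. At 1.5 months the call rested on 10 hematopoietic cells with a UMI, 1 of which held 42 of the 91 UMIs, and was lost without the top doublet scores, as given above. Macrophage-like cells had 540 CPM at 1 month (interval 518 to 563), 369 CPM at 3 months (327 to 416) and 119 CPM at 16 months (87.5 to 157), and held 71.5%, 48.2% and 78.7% of the Ccl8 UMIs. The 19 macrophage-like cells at 1.5 months had 643 CPM. Osteoclast-like cells had 6.49 CPM at 1 month and 218 CPM at 3 months, where 9 of the 71 cells had a UMI and 1 cell held 76 of the 141 UMIs. The stromal Ccl8 at 1 and 3 months was no higher than the level gauged from free RNA, which was 108% and 114% of it.

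Ccl11, an eosinophil attractant that acts through Ccr3, was sparse, with 46, 160, 65 and 133 UMIs in whole libraries, and came from few cells. Mural-like cells had 42.4, 147, 272 and 34.3 CPM and EMP-like cells 21.2, 16.5, 21.5 and 85.1 CPM. EMP-like cells held 58.7% of the UMIs at 1 month and 79.7% at 16 months, and mural-like cells 39.4% and 47.7% at 1.5 and 3 months. LMP-like cells held 44.4% at 1.5 months at 8.29 CPM. Mural- and EMP-like levels overlapped in their intervals at 1 and 16 months, and the mural-like level was higher at 1.5 and 3 months. In AD-like cells no library had more than 0.564 CPM. Stromal cells exceeded hematopoietic cells by 40.2-fold at 1 month (3 hematopoietic UMIs, interval 12.5 to 206), by at least 3.59-fold at 1.5 months, where blood cells had no UMI, and by 8.45-fold at 16 months (2 hematopoietic UMIs, interval 2.29 to 70.6). A single mural-like cell held 29 of the 31 mural-like UMIs at 3 months. Since 50% of its UMIs lay in 2 to 4 cells of each library, these ratios describe a few cells.

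Ccl3 and Ccl4, made by activated myeloid and lymphoid cells, had like distributions. Hematopoietic cells had 79.2, 37.7, 126 and 82.5 CPM of Ccl3, and stromal cells 20.1, 0.956, 7.33 and 0.917 CPM. For Ccl4 the hematopoietic levels were 91.0, 84.0, 189 and 118 CPM and the stromal levels 23.7, 1.2, 9.09 and 0.514 CPM. The hematopoietic excess was smallest at 1 month for both, at 3.94-fold for Ccl3 and 3.84-fold for Ccl4, and largest at 16 months, at 90.0-fold and 230-fold. A single LMP-like cell at 1 month, among the top 8% of doublet scores, held 215 of the 383 stromal Ccl3 UMIs and 273 of the 451 stromal Ccl4 UMIs. Without it the stromal levels were 8.83 and 9.35 CPM and the hematopoietic excess 8.98-fold and 9.73-fold.

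Among classes of at least 20 cells, the highest level of either gene was in the 31 basophil-like cells of the 1 month library, with 3744 CPM of Ccl3 and 2894 CPM of Ccl4. These few cells held 19.3% of the Ccl3 and 13% of the Ccl4 UMIs of that library. Macrophage-like cells had 351, 195 and 176 CPM of Ccl3 at 1, 3 and 16 months, and 507, 597 and 514 CPM of Ccl4. Monocyte-like cells had 145, 263 and 186 CPM of Ccl3 and 144, 313 and 105 CPM of Ccl4. In neutrophil-like cells Ccl3 was 38.8, 109 and 193 CPM and Ccl4 17.9, 63.0 and 292 CPM at 1, 3 and 16 months, and these cells held 46.8% and 58.3% of the 2 genes' UMIs at 16 months. Among named classes of at least 20 cells, Ccl4 was thus highest in basophil-like cells at 1 month and in macrophage-like cells at 3 and 16 months. The unnamed 3 month cluster of 135 cells led by Ccl5 had 592 CPM of Ccl3 and 872 CPM of Ccl4. For Ccl3 at 16 months the neutrophil-, monocyte- and macrophage-like levels overlapped in their intervals. At 1.5 months blood cells were few, and 19 macrophage-like cells had 443 CPM of Ccl3 and 822 CPM of Ccl4.

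Macrophage-, monocyte- and neutrophil-like cells with a Ccl3 UMI more often had a Ccl4 UMI than those without. After thinning the shares at 1 month were 38.3% (interval 30.1 to 47.2) against 15.8% (12.1 to 20.2) in macrophage-like and 30.3% against 10.9% in monocyte-like cells. In neutrophil-like cells at 3 months they were 21.1% (11.4 to 33.9) against 2.38% (1.03 to 4.64). In other classes the direction varied, and AD-, CH- and erythroid-like cells at 1 month had no cell with both. The part played by differences in RNA content between cells was not tested. In the 1 month library the level gauged from free RNA was 14.2% of the stromal Ccl3 and 9.29% of the stromal Ccl4, and 32.3% and 23.5% without the LMP-like cell that held most of both. The cells for 50% of the UMIs numbered 74, 3, 62 and 16 for Ccl3 and 53, 5, 30 and 8 for Ccl4.

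Ccl5, a chemokine of T and NK cells, was strongest at 1 month, where 84 T- and NK-like cells had 2291 CPM (interval 2191 to 2395) and held 61.7% of the UMIs. Of those cells 73.8% had a Ccl5 UMI after thinning (89.3% before), against 2.25% of CH-like cells (6.75% before). The other libraries had no class of T- and NK-like cells, and their Ccl5 came from few cells. At 3 months an unnamed cluster of 135 cells led by Ccl5 and the antigen presentation genes H2-Eb1 and H2-Ab1 had 458 CPM and held 66.2% of the UMIs. Only 9 of its cells had a Ccl5 UMI, and a single one held 194 of the 259 UMIs. At 16 months 35.1% of the UMIs were in erythroid-like cells, of which 0.990% had a UMI and a single one held 123 of 125 UMIs. Hematopoietic cells had 39.4, 0.309, 35.3 and 33.9 CPM and stromal cells 5.62, 1.70, 0.185 and 1.28 CPM. Without the stromal cell highest in Ccl5, the level gauged from free RNA was 393% of the stromal level at 1 month. It was 218% and 9.72% at 3 and 16 months, where the named class highest in Ccl5 rested largely on 1 cell. A single cell held 80 of 96 UMIs in granulocyte-progenitor-like cells at 3 months and 123 of 125 in erythroid-like cells at 16 months. The 3 and 16 month values therefore cannot gauge carry-over of Ccl5. The stromal excess of 5.50-fold at 1.5 months set 48 stromal UMIs against 1 hematopoietic UMI (interval 0.941 to 222), and 50% of the Ccl5 UMIs of that library were in 3 cells.

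Ccl6 and Ccl9, Ccr1 ligands of myeloid cells that lie 9.245 kb apart, differed in their leading classes. Ccl6 was high in monocyte-like cells, with 460, 367 and 310 CPM at 1, 3 and 16 months, and in neutrophil-like cells, with 142, 151 and 556 CPM. Macrophage-like cells had 197, 460 and 208 CPM. At 16 months neutrophil-like cells held 63.4% of the Ccl6 UMIs. Ccl9 was highest in osteoclast-like cells, the bone-resorbing class, with 1179 CPM in 126 cells at 1 month (interval 1137 to 1223) and 1110 CPM in 71 cells at 3 months (1030 to 1194), followed by monocyte-like cells with 461, 536 and 281 CPM at 1, 3 and 16 months. Of osteoclast-like cells 92.1% had a Ccl9 UMI at 1 month and 81.2% at 3 months after thinning. Neutrophil-like cells had only 24.1, 26.8 and 31.2 CPM of Ccl9. In monocyte-like cells at 1 month, 74.4% (70.4 to 78.1) of those with a Ccl6 UMI had a Ccl9 UMI, against 41.4% (36.6 to 46.3) of the rest, and in neutrophil-like cells 7.74% against 5.04%.

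Hematopoietic cells as a whole had 145, 16.1, 167 and 183 CPM of Ccl6 and stromal cells 39.7, 1.59, 11.0 and 1.82 CPM, an excess of 3.65-fold, 10.1-fold, 15.1-fold and 101-fold. Classes outside the myeloid cells also had Ccl6 at 1 month, at 29.9 CPM in OB-like, 40.0 CPM in AD-like, 42.7 CPM in CH-like, 43.3 CPM in erythroid-like and 55.0 CPM in EMP-like cells. At 3 months these classes had 4.08, 10.7, 6.68, 38.5 and 63.0 CPM in the same order, so the EMP- and erythroid-like levels were near those of 1 month and the others lower. At 1.5 and 16 months none of the 5 had more than 2.93 CPM. At 1 month the level gauged from free RNA was 51.8% of that in AD-like and 95.7% of that in CH-like cells. Neutrophil markers summed to 13796 CPM in stromal cells at 1 month, against 237, 3572 and 354 CPM at 1.5, 3 and 16 months. The libraries ranked alike in stromal Ccl6, but Ccl6 in EMP-like cells was 63.0 CPM at 3 months and 55.0 CPM at 1 month. The part of carry-over in these levels was not tested.

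Ccl9 differed in that AD-like cells also carried it, with 60.6, 88.0, 114 and 24.4 CPM. They held 57.4% of the Ccl9 UMIs at 1.5 months and 52.3% at 16 months, and after thinning 13.1%, 18.2%, 21.4% and 5.95% of them had a UMI, against 5.02%, 0.832%, 1.37% and 0% of CH-like cells. A count of 0 among the 113 CH-like cells thinned at 16 months allows a share of cells with a UMI of up to 2.65% by 3 counts of the total and 3.21% by the exact binomial interval, which is no limit on cells that express the gene. The level gauged from free RNA was 67.9% of the AD-like value at 1 month, 35.8% at 3 months and 0.961% at 16 months. In the compartments hematopoietic cells had 151, 88.0, 214 and 57.7 CPM and stromal cells 22.3, 25.8, 25.1 and 17.2 CPM, a hematopoietic excess of 6.77-fold, 3.41-fold, 8.53-fold and 3.35-fold. Without the stromal cell highest in Ccl9, the gauged level was 270%, 395% and 3.62% of the stromal level at 1, 3 and 16 months. At 1 and 3 months it was gauged from osteoclast-like cells, whose markers include Mmp9 and Ctsk. An unnamed stromal cluster of 228 cells at 3 months was itself led by Mmp9, so the stromal gauge can be too high. AD-like cells held 202 of the 271 stromal Ccl9 UMIs at 3 months.

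Ccl19, which binds Ccr7 and is made by stromal cells of lymphoid tissue, was a stromal gene in every library. Stromal cells had 9.19, 31.9, 19.5 and 71.3 CPM and hematopoietic cells 0.366, 2.78, 0 and 1.60 CPM, so stromal cells were 25.1-fold, 11.5-fold, at least 67.1-fold and 44.5-fold higher. AD-like cells had 34.1, 94.8, 79.5 and 96.8 CPM and held 27.2%, 71.0%, 57.1% and 74.9% of the UMIs. EMP-like cells had 40.9, 93.9, 4.30 and 127 CPM, the value at 3 months resting on 3 UMIs. The 2 classes overlapped in their intervals at 1 and 1.5 months, and EMP-like cells were higher at 16 months. At 3 months an unnamed stromal cluster of 48 cells led by Cxcl9, Cygb and Mfap5 had 137 CPM, and at 16 months one of 359 cells led by immunoglobulin genes had 86.4 CPM. Both overlapped in their intervals with the AD-like cells of the same library. LMP-like cells had between 2.50 and 12.7 CPM. The hematopoietic Ccl19 at 1, 1.5 and 16 months was below the level gauged from free RNA, which was 293%, 167% and 294% of it. At 16 months 537 cells held 50% of the Ccl19 UMIs, against 287 cells for Ccl2. Ccl2 was nevertheless found in more cells, with a UMI after thinning in 2066 of 5625 cells, against 926 for Ccl19.

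**Figure D3:**
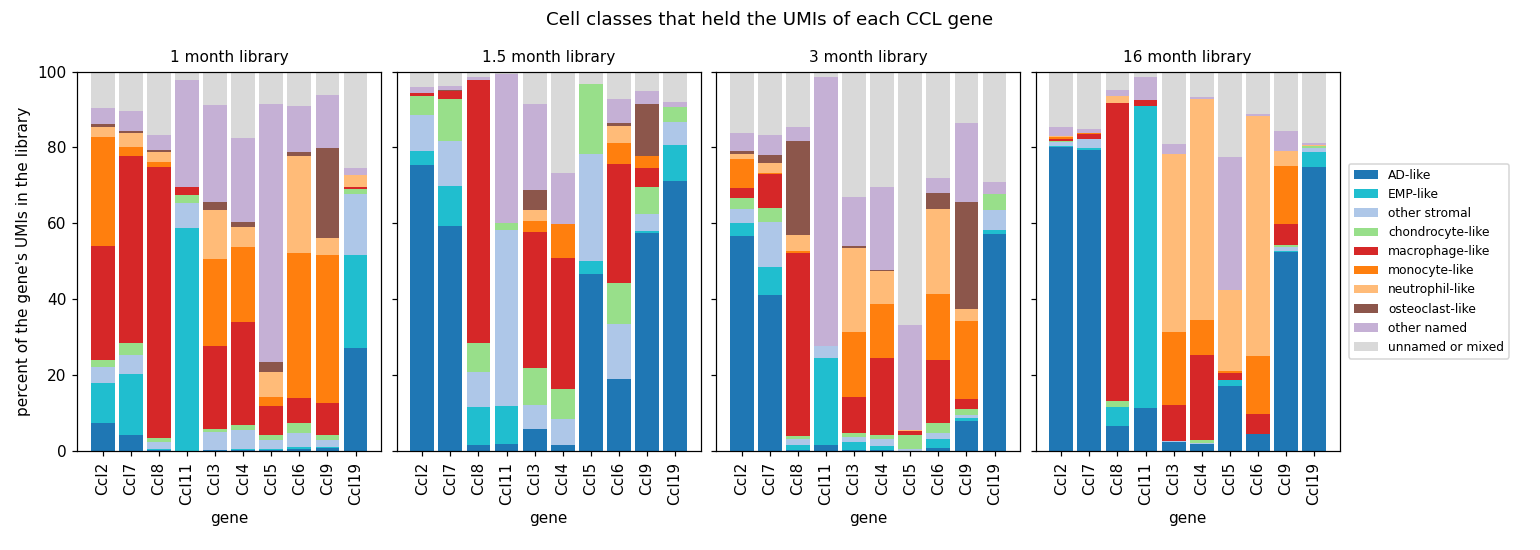
Share of each member's UMIs (stacked bars to 100%) held by each cell class in each library. AD-like cells take 80.0% of Ccl2 and 74.9% of Ccl19 at 16 months, neutrophil-like cells 63.4% of Ccl6 at that age, and macrophage-like cells 71.5% of Ccl8 at 1 month.

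**Figure D4:**
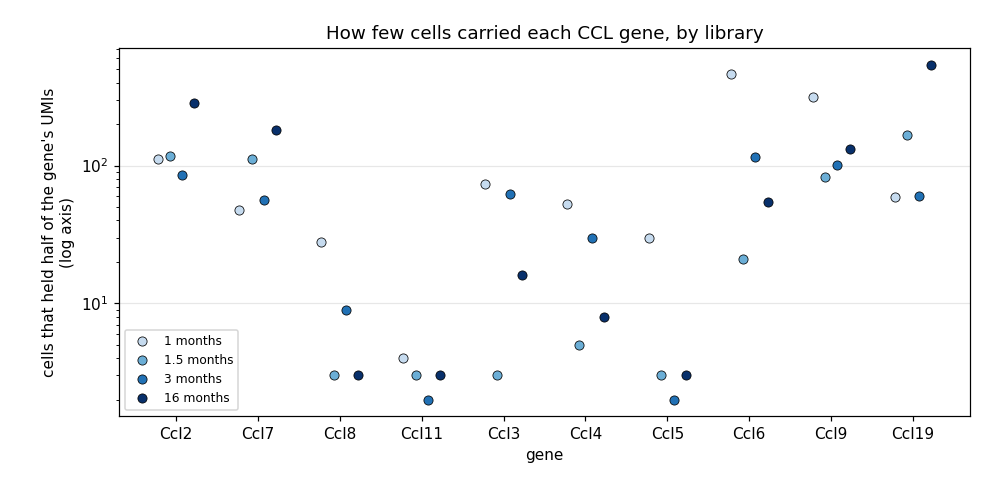
Number of cells (log axis) that together hold 50% of each member's UMIs in each library. Ccl11 lies between 2 and 4 cells, whereas Ccl6 takes 462 cells at 1 month and Ccl19 537 cells at 16 months.

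The second comparison set AD-like cells at 16 months against 3 months, the nearest adult library. Of the 8 members with at least 20 UMIs, 0 were at least 2-fold higher at 16 months, where 15.5% of all genes tested were, and 5 were at least 2-fold higher at 3 months (Ccl3, Ccl4, Ccl6, Ccl7 and Ccl9), where 5.66% were. The median log2 ratio of 16 over 3 months was -1.48 over the members and 0.21 over all genes with UMIs at both ages. Ccl8 and Ccl11 had too few UMIs. The count rested on 1 library per age, and the AD-like cells formed 1 cluster at 3 months and 5 at 16 months.

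Ccl9 was 4.67-fold lower at 16 months (interval 3.98 to 5.47) and Ccl7 2.10-fold lower (1.96 to 2.25). Ccl6 was 4.59-fold lower (2.62 to 7.69), at 10.7 CPM at 3 months and 2.33 CPM at 16 months. Ccl4 was 6.22-fold lower (2.01 to 16.5) and Ccl3 3.71-fold lower (0.919 to 11.2), on 6 and 4 UMIs at 3 months. Ccl2 stood at 2147 against 1557 CPM, a ratio of 16 over 3 months of 0.725 (0.702 to 0.750), and Ccl19 at 79.5 against 96.8 CPM, a ratio of 1.22 (1.03 to 1.45). Neutrophil markers in AD-like cells summed to 16792, 252, 2028 and 238 CPM and macrophage markers to 212, 10.2, 53.6 and 6.80 CPM at 1, 1.5, 3 and 16 months, so both were higher at 3 than at 16 months, as Ccl3, Ccl4 and Ccl6 were. Their part in these differences was not tested. Against the 1 month library the direction was the opposite for Ccl2, 7.09-fold higher at 16 months, and Ccl7, 3.15-fold higher, while Ccl19 was 2.83-fold higher. Against 1.5 months Ccl2 was 1.04 times, Ccl19 1.02 times and Ccl7 0.53 times the level. Ccl9 was lower at 16 months beside each younger library, by 2.49-fold, 3.61-fold and 4.67-fold against 1, 1.5 and 3 months. The direction for Ccl2 and Ccl7 therefore depended on which younger library was set beside the 16 month one.

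AD-like cells of the 16 month library were not alike in Ccl2 and Ccl7. A cluster of 851 cells, led by Il6, Ccl2 and Fosl1 and also high in Ptx3 (1309 CPM), an inflammatory pattern-recognition gene, had 3566 CPM of Ccl2 (interval 3528 to 3606) and 470 CPM of Ccl7. Another of 921 cells, led by Fabp4 and heat shock genes, had 1262 CPM and 247 CPM. The remaining large clusters had 331 CPM and 90.6 CPM (911 cells) and 215 CPM and 57.3 CPM (605 cells). A cluster of 32 cells led by the interferon-induced Cxcl9 and Cxcl10 had 1956 CPM of Ccl2, 159 CPM of Ccl7 and 293 CPM of Ccl19. A like split was seen at 1.5 months, where 874 cells had 1892 CPM of Ccl2 and 582 CPM of Ccl7, and 294 cells led by Iigp1 and Esm1 had 230 CPM and 70.4 CPM. These values describe clusters built from other genes of the same cells. Immediate early and heat shock genes of the handling stress list summed to 14489, 19878, 19505 and 27467 CPM in AD-like cells, and 4 of its 14 genes were at least 2-fold higher at 16 than at 3 months, with 0 lower, where 15.5% of all genes were higher at 16 and 5.66% higher at 3 months. Their part in the Ccl2 and Ccl7 levels was not tested.

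In other classes the difference between 16 and 3 months took other directions. In EMP-like cells Ccl11 was 3.96-fold higher at 16 months and Ccl7 was at 0.20 of its 3 month level. A single cell held 45 of the 106 Ccl11 UMIs at 16 months and another 9 of the 15 at 3 months. For Ccl7, 1 EMP-like cell held 42 UMIs at 3 months. Of all genes tested in EMP-like cells, 27.3% were at least 2-fold higher at 16 months and 8.86% at 3 months. In LMP-like cells Ccl2 was 2.89-fold higher at 16 months, and in neutrophil-like cells Ccl4 and Ccl6 were 4.63-fold and 3.67-fold higher. After thinning, 12 of 219 neutrophil-like cells had a Ccl4 UMI at 16 months and 20 of 393 at 3 months. For Ccl6 these counts were 89 and 74. Of all genes, 20.3% were at least 2-fold higher at 16 months in LMP-like, 28.3% in neutrophil-like and 20.1% in macrophage-like cells. In macrophage-like cells Ccl2 was 3.29-fold higher and Ccl8 at 0.32 of its 3 month level, with 34 cells at 16 months.

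Several receptors that read these ligands were measured in blood cells. Ccr2, the receptor of Ccl2 and Ccl7, had 164, 242 and 372 CPM in monocyte-like cells at 1, 3 and 16 months. Ccr1, which binds Ccl3, Ccl5, Ccl6, Ccl7 and Ccl9, had 135 CPM in monocyte-like cells at 1 month and 312 CPM in neutrophil-like cells at 16 months. Ccr7, the receptor of Ccl19, reached 117 CPM in B-lineage-like cells at 1 month. Of the 4 atypical receptors, which take up chemokines without G protein signalling, Ackr4, a scavenger of Ccl19, was on the stromal side with 184, 227, 191 and 209 CPM in AD-like cells. Ackr1 reached 225 CPM in endothelial-like cells at 3 months.

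Of the 12 other CCL genes, 5 reached 20 CPM in a class of at least 50 cells. Ccl12, another Ccr2 ligand, had 281 CPM in macrophage-like cells at 1 month. Ccl21a, a Ccr7 ligand like Ccl19, had 313 CPM in endothelial-like cells at 3 months. Ccl24 and Ccl27a reached 39.1 CPM in macrophage-like and 25.9 CPM in EMP-like cells.

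Likeness was described as Pearson's r of log2(CPM + 1) over 44 class-by-library groups of at least 50 cells, among 10360 genes. The groups share libraries and depth, so r is a description. Ccl3 was most like Ccl4 (0.92), Ccl8 most like C1qc (0.88), Ccl6 most like Tyrobp (0.95), Ccl5 most like Xcl1 (0.85), Ccl9 most like Irf5 (0.86) and Ccl19 most like Kcns3 (0.93). Ccl2 was most like Ifi204 (0.82), Ccl7 most like B3galnt1 (0.87) and Ccl11 most like Galnt16 (0.84). Between members, r was 0.80 for Ccl2 and Ccl7, 0.89 for Ccl3 and Ccl6, 0.70 for Ccl6 and Ccl9, and -0.04 for Ccl2 and Ccl3.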

How the data were processed

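The authors counted UMIs per gene and cell with Cell Ranger 3.0.2 on a modified mm10 genome (the submitters' notes also name Seurat 2) and deposited raw counts, 1 table per library, with totals of 108227184, 63258961, 32672631 and 93269331 UMIs at 1, 1.5, 3 and 16 months. The study's filter was applied (between 200 and 6000 genes, no more than 5% of UMIs from mitochondrial genes). Clusters were rebuilt in Seurat 5.3.0 (R 4.3.3) from 2000 variable genes without chemokine, receptor and naming-marker genes, with 30 components and a resolution of 0.8, and canonical correlation alignment for the 1 and 1.5 month libraries. Names differ from the study where clusters were rebuilt. No doublets were removed beyond the gene limit, since Scrublet's own threshold (scanpy 1.11.5) marked 1, 90, 8 and 1 cells.

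CPM of summed UMIs were compared as ratios with a conditional exact interval. With 1 library per age there is no test, and a call is a ratio of at least 2 with at least 20 UMIs over both groups. A side at 0 was set to 3 counts. Free RNA was gauged as the level in the highest class times the ratio of that class's markers in the 2 groups. The fold calls were checked on simulated counts. The named genes were all members, list genes over 20 CPM in a class of at least 50 cells, and the 3 genes most like each member. Members and lists were chosen with earlier results of these data known. 1 listed item and the count over its list are not reported here.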

Additional observations from a re-analysis of the deposited data

Results flagged for a closer look

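Ccl5 stood out because its log2 ratio of hematopoietic over stromal level changed sign between libraries. The value was -2.46 at 1.5 months, whereas the libraries of 1, 3 and 16 months gave 2.81, 7.57 and 4.72. The difference between libraries was not tested, and the 1.5 month value set 1 hematopoietic UMI against 48 stromal UMIs. The 3 month value set 365 hematopoietic UMIs, 194 of them in 1 cell, against 2 stromal UMIs.

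The log2 ratio of 16 over 3 months went in opposite directions, by at least 2-fold each way, in different classes for 4 members, and none of these differences was tested. For Ccl4 it was -2.64 in AD-like, -3.66 in LMP-like and -1.58 in monocyte-like cells. In EMP-like cells it was -3.64, a bound set by 0 UMIs at 16 months. In neutrophil-like cells it was 2.21, where 12 of 219 thinned cells at 16 months and 20 of 393 at 3 months had a UMI. For Ccl6 it was -2.20 in AD-like, -3.26 in LMP-like and -1.15 in macrophage-like cells and 1.88 in neutrophil-like cells, with -4.71 in EMP-like cells again a bound. For Ccl7 it was -1.07 in AD-like, -2.33 in EMP-like and 1.60 in OB-like cells, where 1 cell held 42 of the 52 UMIs at 16 months. For Ccl9 it was -2.22 in AD-like, -2.42 in EMP-like and 1.09 in macrophage-like cells. Of all genes tested, those at least 2-fold higher at 16 months made up 15.5% in AD-like, 27.3% in EMP-like and 20.3% in LMP-like cells. This share was 10.6% in OB-like, 28.3% in neutrophil-like, 15.5% in monocyte-like and 20.1% in macrophage-like cells. At least 2-fold higher at 3 months were 5.66%, 8.86%, 7.43%, 6.09%, 14.1%, 5.94% and 11.6% in the same order.

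The barcodes outside the filter, which no comparison used, also held the members. Their summed level was 455 CPM in 109 barcodes at 1 month, 258 CPM in 292 at 1.5 months, 565 CPM in 336 at 3 months and 475 CPM in 3086 at 16 months. At 16 months 313.5 CPM of it was Ccl2.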

How the results depend on the processing

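Of 42 calls on single members, 29 were kept under every alternative that left the fold and the minimum of UMIs unchanged. A kept call had the same direction, at least 2-fold, with at least 20 UMIs. The counts that moved by over 1.5 times were mostly those of the 1.5 month library, with 304 hematopoietic cells. Its count of members higher in stromal cells, 5, became 3 with up to 10% mitochondrial UMIs, 3 after thinning to 3000 UMIs, 2 without the unnamed blood-cell clusters and 3 without the 3 cells highest in each member. Its count higher in hematopoietic cells, 5, became 1 without the top 8% of doublet scores. The 1 month count higher in stromal cells, 2, became 1 after thinning and 1 without the 3 highest cells, and the AD-like count higher at 3 months, 5, became 3 after thinning. The calls lost there were Ccl11 at 1 month, and Ccl3 and Ccl4 in AD-like cells. Their log2 ratios lay between -2.59 and -5.17, but they had fewer than 20 UMIs. At 1.5 months the log2 ratio of hematopoietic over stromal level reversed to -1.05 for Ccl3 and -0.33 for Ccl9 without the top doublet scores, and to 0.49 (thinned) and 0.14 (unnamed clusters left out) for Ccl5. The cause was not tested.

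At 3 months the stromal excess of Ccl7 fell under 2-fold at -0.94 (up to 10% mitochondrial UMIs, and thinned), -0.81 (mean of single-cell CPM) and -0.86 (median of ratios). In AD-like cells the log2 ratio of 16 over 3 months for Ccl7 was -0.78 at a resolution of 1.2 and -0.52 against the mean of the 1, 1.5 and 3 month libraries. For Ccl2 it was -0.46, and 0.27 against that mean. Without the 16 month cluster highest in Ccl7 (851 cells) it was -1.53 for Ccl2 and -1.74 for Ccl7. That alternative and those without unnamed clusters or the 3 highest cells were chosen after seeing the data. No paired analysis was possible because each age had 1 library.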
